A study of Mus musculus with 4 samples.

Results

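The genes described here are 9 effectors of cytotoxic lymphocytes: the granzymes Gzma, Gzmb, Gzmk and Gzmm, the pore-forming protein perforin (Prf1), the granule membrane protein Nkg7, the chemokine Ccl5, the cytokine interferon gamma (Ifng) and the death ligand Fasl. They were taken by symbol from the 32285 genes of the deposited tables, and none of the 9 was used to assign cells to populations. They were read in blood mononuclear cells of 2 inbred mouse strains, BL/6 and SM/J, each at 12 and 20 months of age. Blood was drawn from the heart, mononuclear cells were isolated over a density gradient, and 3' single-cell libraries were made on the 10x Genomics platform with multiplexing. No genotype or treatment other than strain and age was given in the labels, and sex was not given. The 2 ages of a strain shared 1 multiplexed 10x sample and were deposited as separate matrices, called libraries here, so that strain and run cannot be told apart. Each strain and age gave 1 library, so differences between libraries carry no test. The 3 tagged aliquots of each library show the spread within it. Whether they are animals was not stated in the sources used here, and they were not treated as replicates. Reads of SM/J were set against a reference derived from BL/6, and the effect of that on the strain comparisons was not tested.

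Cytotoxic lymphocytes kill by releasing granules at the contact with a target cell. Perforin opens the target's membrane to granzymes, which are serine proteases: granzyme B cleaves after aspartate and activates caspases, granzymes A and K cleave after basic residues, and granzyme M prefers methionine or leucine. Fasl triggers the death receptor Fas on the target, interferon gamma activates macrophages and raises antigen presentation, and Ccl5 is a chemokine that draws leukocytes. Natural killer (NK) cells hold transcripts of granule proteins before any encounter, and naive CD8 T cells hold few of most of them. Memory CD8 T cells hold more Ccl5 and Nkg7 transcripts than naive ones. The levels given here are of RNA, and protein was not measured.

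The granzyme genes lie on 3 chromosomes. Gzma (chr13:113093825-113100981) and Gzmk (chr13:113171608-113225908) are both on the minus strand of chromosome 13, Gzmb is on chromosome 14 (chr14:56258838-56262260, minus strand) and Gzmm on chromosome 10 (chr10:79689020-79695261, plus strand), in the mouse build GRCm38 and the GENCODE M21 annotation. Prf1 (chr10:61297833-61304680) and Ifng (chr10:118441046-118445892) are also on chromosome 10, Nkg7 on chromosome 7 (chr7:43437073-43438249), Ccl5 on chromosome 11 (chr11:83525778-83530518) and Fasl on chromosome 1 (chr1:161780689-161788495). All 9 are annotated as protein-coding. RefSeq's promoter table for GRCm38.p6 matched 8 of the 9, with 2 starts for Gzmm; Ccl5 had no entry. The 250 bases before the start of the 4 granzymes are shown because the granzymes divided into opposite patterns in CD8 T cells, described below. Capitals mark the letters GGTGTGA, a core of T-box sites, and TGTGGTT, a core of RUNX sites, or their reverse complements TCACACC and AACCACA. For Gzmm the first start is shown, which holds neither. The window of Gzmk lies inside the gene's annotated span, which begins farther upstream.
Gzma, chr13:113100982-113101231, minus strand: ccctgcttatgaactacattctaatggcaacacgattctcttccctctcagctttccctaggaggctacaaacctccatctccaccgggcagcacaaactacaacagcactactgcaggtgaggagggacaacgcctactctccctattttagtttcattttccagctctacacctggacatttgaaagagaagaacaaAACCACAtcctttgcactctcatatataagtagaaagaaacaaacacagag
Gzmb, chr14:56262335-56262584, minus strand: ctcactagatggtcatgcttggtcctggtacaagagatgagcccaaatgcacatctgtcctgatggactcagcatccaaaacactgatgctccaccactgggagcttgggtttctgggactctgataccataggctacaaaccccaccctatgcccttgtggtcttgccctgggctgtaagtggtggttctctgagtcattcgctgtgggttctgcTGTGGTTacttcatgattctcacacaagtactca
Gzmk, chr13:113180966-113181215, minus strand: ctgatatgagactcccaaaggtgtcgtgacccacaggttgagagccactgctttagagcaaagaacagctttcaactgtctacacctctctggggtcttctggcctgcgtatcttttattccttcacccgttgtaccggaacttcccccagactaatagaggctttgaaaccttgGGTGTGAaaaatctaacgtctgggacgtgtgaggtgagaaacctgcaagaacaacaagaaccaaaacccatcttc
Gzmm, chr10:79688770-79689019, plus strand: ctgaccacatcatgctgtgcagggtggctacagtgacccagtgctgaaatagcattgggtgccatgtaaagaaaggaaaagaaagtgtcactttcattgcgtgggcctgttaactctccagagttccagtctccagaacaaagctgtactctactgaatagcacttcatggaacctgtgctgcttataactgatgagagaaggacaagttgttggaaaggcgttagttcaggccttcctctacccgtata
The T-box letters stood in 3 of the 9 windows, those of Gzmk, Nkg7 and the other start of Gzmm, and in 3.33% of all 32851 windows in the table. The RUNX letters stood in the windows of Gzma and Gzmb and in 4.40% of all windows. In Gzma they ended 45 bases before the start and in Gzmb 28 bases before it. Both motifs were chosen after the sequences had been seen, the search covered both strands, no match overlapped another, and a match in these letters is a description of the sequence only.

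After filtering, 11596 of the 12299 deposited cells were kept, 2407 to 3398 per library, with a median depth of 4060 to 8837 UMIs (unique molecular identifiers, each a counted molecule). Doublet calls had removed 125 cells, and 8 barcodes occurred in 2 libraries, always in libraries of different strains. NK cells, with a UMI of Ncr1 or Klre1 and none of Cd3e, numbered 112 for BL/6 at 12 months, 78 at 20 months, 67 for SM/J at 12 months and 60 at 20 months. These were 3.46%, 2.69%, 2.88% and 2.26% of leukocytes. CD8 T cells, with Cd3e and Cd8a or Cd8b1 but no Cd4, numbered 198, 119, 108 and 59 in the same order. Of the 8 NK marker genes outside the gate, 7 or 8 were detected in the NK cells of each library, and at least 1 was seen in 94.0% to 100% of those cells. The T cell genes Cd3d, Cd3g and Trac were each in at most 11.6% of NK cells, against 67.2% to 98.3% of CD8 T cells. Transcripts of other lineages were also present in the NK gate. Lyz2, a myeloid gene, was at 2502 CPM (UMIs of the gene per 1000000 summed UMIs of the population) in BL/6 at 20 months and at 288 to 668 CPM in the other libraries, and the B cell gene Cd79a was at 945 CPM in SM/J at 20 months and at 37.8 to 279 CPM elsewhere. In CD8 T cells of SM/J at 20 months, Cd79a was at 429 CPM, against 5.05 to 16.9 CPM in the other CD8 libraries. The part of such transcripts in the results was not tested beyond the purity filters named beside them.

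NK and T cells held nearly all UMIs of the 9 genes, and B and myeloid cells held little. The share of a gene's UMIs found in NK and T cells ranged from 84.2% (Gzmm, BL/6 at 20 months) to 98.8% (Gzma, SM/J at 12 months) over the 9 genes and 4 libraries. Pooled over the libraries, B lineage cells held from 0.0255 CPM (Gzmk) to 5.67 CPM (Ccl5), and monocytes and macrophages from 0.110 CPM (Gzmk and Fasl) to 10.8 CPM (Ccl5). Pooled Gzma was at 6796 CPM in 317 NK cells, 359 CPM in 484 CD8 T cells, 22.0 CPM in 382 CD4 T cells and 54.0 CPM in 512 other T cells. Gzmk differed from it, with 1 UMI in all NK cells and 27.3, 20.4 and 25.0 CPM in CD8, CD4 and other T cells. Gzmm was at 12.6 CPM in NK cells and 201 CPM in CD8 T cells. The 93 basophils held 6 UMIs of Gzmb and 11 of Nkg7, and the 361 cells that met no gate held Ccl5 at 1172 CPM and Gzma at 73.7 CPM.

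To compare detection at equal depth, each cell was thinned to 1000 UMIs, which left out 3 NK cells, no CD8 T cell and 5 B lineage cells. A UMI of any of the 9 genes was then present in 85.0% to 92.0% of NK cells, in 62.0% to 92.4% of CD8 T cells and in 0.497% to 2.57% of B lineage cells. At 3 or more of the 9 genes the shares were 71.4% to 83.1% of NK cells, 10.2% to 39.4% of CD8 T cells and none of the 974 to 1962 B lineage cells of a library. With all UMIs, at median depths of 2663 to 4776 UMIs in NK cells and 3492 to 9674 in B lineage cells, Gzma was seen in 80.0% to 82.1% of NK cells and 1.02% to 2.77% of B lineage cells. Each gene's share in B lineage cells is taken as the background that free RNA can give.

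**Figure D1:**
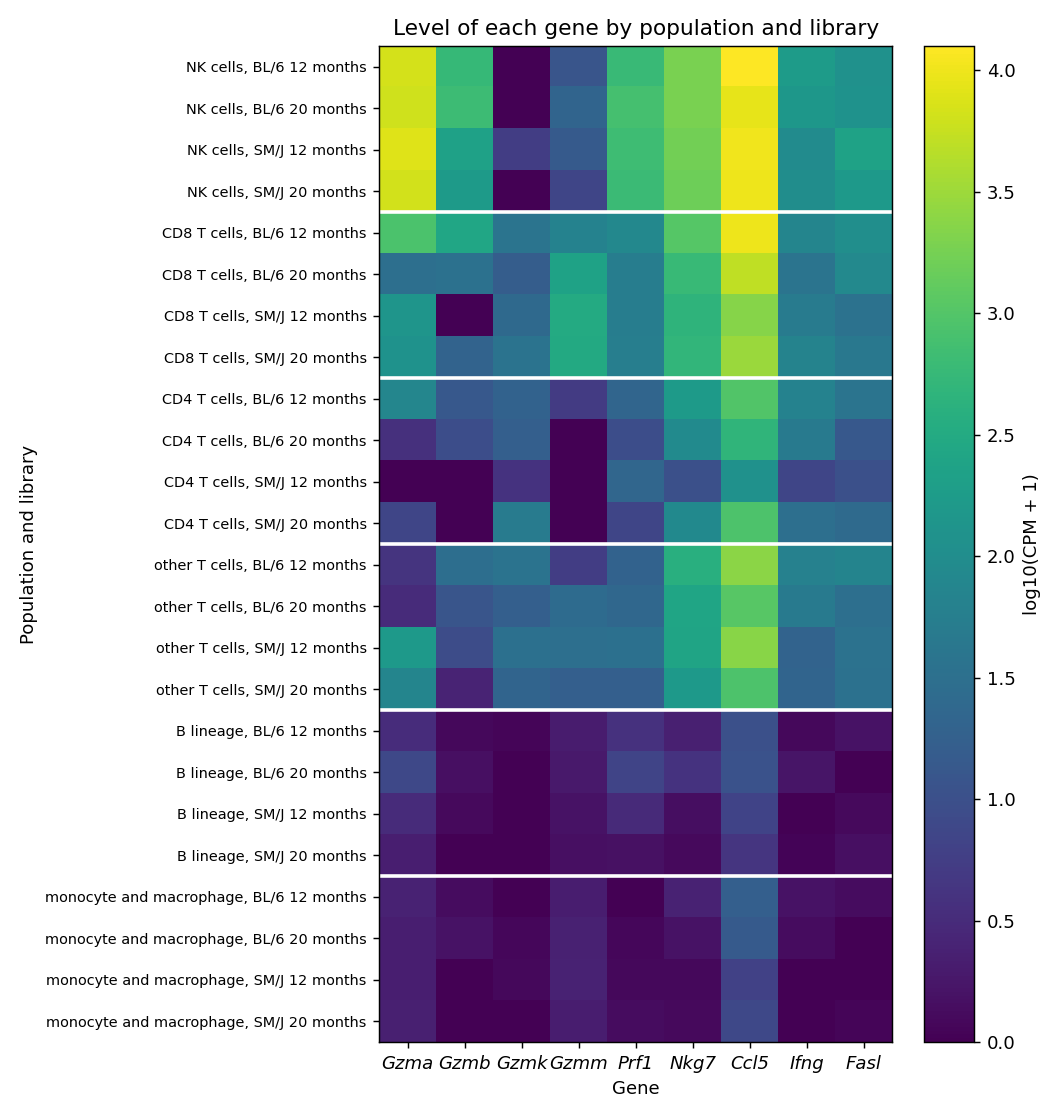
Level of the 9 genes (columns) in 6 populations, each in 4 libraries (rows), as log10 of CPM + 1 from dark (0) to bright (above 4). NK cells are bright for Gzma, Prf1, Nkg7 and Ccl5 in the 4 libraries and dark for Gzmk and Gzmm, CD8 T cells differ between libraries, and B lineage cells and monocytes are dark.

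In NK cells no member with 30 UMIs differed 2-fold between 12 and 20 months in either strain, and Gzmb was lower in SM/J than in BL/6. Gzma was at 6777 CPM in BL/6 at 12 months, 6412 CPM at 20 months, 7985 CPM in SM/J at 12 months and 6492 CPM at 20 months. Its aliquots ran from 4566 to 8104 CPM in BL/6 and from 5258 to 16567 CPM in SM/J, so the ages overlapped in both strains. The highest value came from the aliquot of SM/J at 20 months with 10 NK cells. Prf1, which Gzma needs to enter a target, was at 609.8 and 768 CPM in BL/6 and 674 and 631 CPM in SM/J. Nkg7, which takes part in granule release, was at 1873 and 1887 CPM in BL/6 and 1716 and 1558 CPM in SM/J. These 3 genes showed neither age nor strain differences beyond the range of their aliquots.

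Gzmb in NK cells was the member that separated the strains. It was at 552 CPM in BL/6 at 12 months, 650.0 CPM at 20 months, 225 CPM in SM/J at 12 months and 171 CPM at 20 months. The aliquots of BL/6 lay between 472 and 818 CPM and those of SM/J between 136 and 438 CPM, with no overlap. SM/J was 2.45-fold lower at 12 months, a log2 ratio of -1.29 with a 95% counting interval of -1.75 to -0.86. At 20 months it was 3.79-fold lower, a log2 ratio of -1.92 with an interval of -2.36 to -1.50. A UMI of Gzmb was found in 59.8% and 64.1% of BL/6 NK cells and in 29.9% and 50.0% of SM/J NK cells, and after thinning in 26.8%, 32.5%, 20.0% and 23.3%. The thinned shares of the strains have overlapping counting intervals. Leaving out cells with any UMI of Cd79a, Ms4a1, Lyz2, Csf1r or Pf4 brought the 12-month log2 ratio to -0.24, and thinning or a milder purity filter also took it under 2-fold. At 20 months it was past 2-fold in 15 of 15 alternatives.

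With the main filters, none of the soluble and surface effectors of NK cells passed 2-fold in any comparison. Between strains at 12 months this depended on the filter. Without cells holding 2 or more B lineage or monocyte markers, 2 of 7 members passed, beside 11.9% of all genes. Gzmb was not among them. Ccl5 was at 12589 and 8775 CPM in BL/6 at 12 and 20 months and at 10218 and 9919.6 CPM in SM/J. In BL/6 the aliquots of the 2 ages did not overlap, at 12350 to 13091 CPM and 7508 to 9709 CPM, and the log2 ratio was -0.52 (counting interval -0.58 to -0.46). In SM/J it was -0.04 (-0.12 to 0.04), and the difference between the strains in this respect was not tested. Ifng was at 176 and 149 CPM in BL/6 and 94.4 and 101 CPM in SM/J, from 21 to 112 UMIs per library, with overlapping aliquots. Fasl was at 119 and 123 CPM in BL/6 and 229 and 159 CPM in SM/J. Its SM/J over BL/6 log2 ratio was 0.93 at 12 months (0.40 to 1.46) and 0.36 at 20 months (-0.23 to 0.95), and its aliquots overlapped between strains at both ages.

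NK cells held almost no Gzmk or Gzmm. Gzmk had no UMI in NK cells of either BL/6 library or of the older SM/J library, for limits of 4.71, 7.56 and 9.15 CPM, and 1 UMI in SM/J at 12 months. Gzmm had 7 and 8 UMIs in the BL/6 libraries, 3 and 2 in those of SM/J, or 6.10 to 20.2 CPM. These are too few to order the libraries.

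Of the 7 members with at least 30 UMIs in NK cells, none was 2-fold different with age in either strain. The share of all genes past that fold was 6.73% of 4945 in BL/6 and 7.99% of 3004 in SM/J. Between strains 1 of 7, Gzmb, was past 2-fold at each age, beside 10.9% of 4343 genes at 12 months and 14.4% of 3875 at 20 months. A share of 1 in 7 is near that background. The median size of the log2 ratio was 0.24 for the members and 0.30 for all genes in BL/6 with age, and 0.14 and 0.33 in SM/J. Between strains it was 0.30 and 0.36 at 12 months and 0.28 and 0.42 at 20 months.

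**Figure D2:**
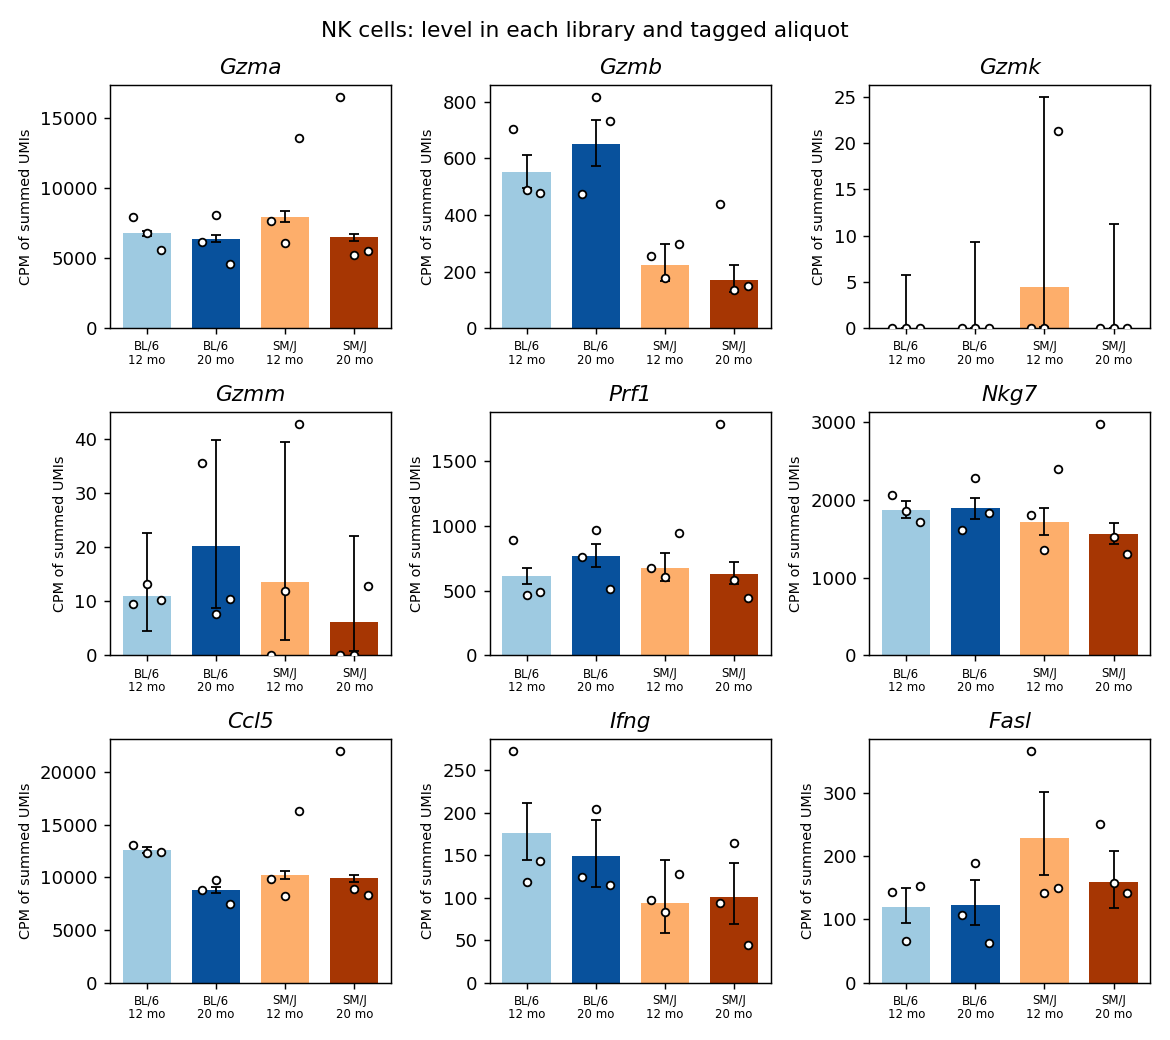
NK cell level of each gene (CPM of summed UMIs, linear axes from 0) in the 4 libraries; bars are libraries with 95% Poisson intervals for counting error, open circles are the 3 tagged aliquots. Gzmb aliquots of SM/J, at 136 to 438 CPM, lie below those of BL/6, at 472 to 818 CPM, while those of Gzma, Prf1 and Nkg7 overlap.

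In CD8 T cells BL/6 at 12 months stood apart from the other libraries. Gzma, Gzmb, Nkg7 and Ccl5 were highest there and Gzmm lowest, with counting intervals clear of the other libraries. Gzma was at 873 CPM in BL/6 at 12 months, 30.1 CPM at 20 months, 138 CPM in SM/J at 12 months and 123 CPM at 20 months. The aliquots of BL/6 were at 696 to 1028 CPM at 12 months and at 0 to 56.2 CPM at 20 months, a gap of more than the spread at either age. At 12 months 61 of 198 cells (30.8%) held a UMI of Gzma, and at 20 months 6 of 119 (5.04%). The log2 ratio of 20 over 12 months was -4.81 (-5.35 to -4.32), a level 28.1-fold lower. In SM/J the level rested on few cells: 1 cell held 54 of the 101 UMIs at 12 months, and 2 cells held all 52 UMIs at 20 months.

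Gzmb was ordered like Gzma in BL/6. It was at 261 CPM in BL/6 at 12 months and 32.9 CPM at 20 months, with aliquots of 202 to 372 CPM and 26.2 to 43.4 CPM. The log2 ratio was -2.95 (-3.48 to -2.45). Gzmb had no UMI among the 730475 in CD8 T cells of the younger SM/J library, a limit of 4.11 CPM, and at 20 months it had 8 UMIs in 4 cells, or 18.9 CPM. The BL/6 level at that age was 63.6-fold above a floor of 3 UMIs over the SM/J library. That figure leaves out the counting error of BL/6. The counting interval of the log2 ratio of SM/J over BL/6 ended at -5.43. The 8 UMIs of the older SM/J library, 7 of them in aliquot 3, are too few to order its ages.

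Gzmm had the opposite order. It was at 64.0 CPM in BL/6 at 12 months, 231 CPM at 20 months, 318 CPM in SM/J at 12 months and 304 CPM at 20 months. The aliquots of BL/6 were at 55.2 to 77.3 CPM at 12 months and 197 to 297 CPM at 20 months, and those of SM/J between 211 and 468 CPM. BL/6 at 12 months was thus below the other libraries in each aliquot. The log2 ratio in BL/6 was 1.84 (1.47 to 2.22), a level 3.57-fold higher at 20 months. Cells with a Gzmm UMI were 18.7% of BL/6 CD8 T cells at 12 months, 70.6% at 20 months, then 68.5% and 71.2% of those of SM/J, and after thinning to 1000 UMIs 3.54%, 21.8%, 24.1% and 23.7%, against at most 0.153% of B lineage cells.

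Gzmk was low in each CD8 library, with 44 and 16 UMIs at the ages of BL/6, 18 and 15 at those of SM/J, or 37.1, 15.0, 24.6 and 35.4 CPM. Its log2 ratio in BL/6 was -1.25 (-2.11 to -0.43), and the aliquots did not overlap, at 27.6 to 55.3 CPM and 5.23 to 20.7 CPM. It held 2-fold in 11 of 16 alternatives, was under 2-fold without aliquot 2 of either library, and in cells without Lef1 and Ccr7 the levels were 61.5 CPM from 17 UMIs at 12 months and 184 CPM from 9 UMIs at 20 months. Prf1 was at 80.8 and 54.5 CPM in BL/6 and at 53.4 and 56.6 CPM in SM/J. Its aliquots did not overlap between ages in BL/6, at 67.2 to 91.1 CPM and 47.1 to 58.7 CPM, and overlapped between strains.

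Nkg7 was 1.77-fold and Ccl5 1.92-fold lower at 20 months in BL/6. Nkg7 was at 1027 and 580.2 CPM in BL/6 and at 456 and 500.3 CPM in SM/J, with a log2 ratio of -0.82 in BL/6 (-0.97 to -0.68). Ccl5 was at 9921 and 5171 CPM in BL/6 and at 2227 and 3091 CPM in SM/J, with a log2 ratio of -0.94 in BL/6 (-0.99 to -0.89). In BL/6 the aliquots of the 2 ages did not overlap for either gene. Fewer CD8 T cells of SM/J held Ccl5. In cells thinned to 1000 UMIs, Ccl5 was seen in 89.9% and 88.2% of BL/6 CD8 T cells, but in 21.3% of those of the younger SM/J library and 55.9% of the older, with exact intervals of 14.0% to 30.2% and 42.4% to 68.8%. The B lineage shares were 0.249% to 1.23%.

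Ifng in CD8 T cells was at 73.3 and 36.7 CPM in BL/6 and 50.7 and 68.4 CPM in SM/J, from 29 to 87 UMIs per library. The aliquots of BL/6 did not overlap between ages, at 52.8 to 96.0 CPM and 30.7 to 41.4 CPM, while those of SM/J did. Fasl was at 104 and 85.6 CPM in BL/6 and 34.2 and 42.5 CPM in SM/J. Each SM/J aliquot, at 16.4 to 61.0 CPM, was below each BL/6 aliquot, at 83.7 to 122 CPM.

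**Figure D3:**
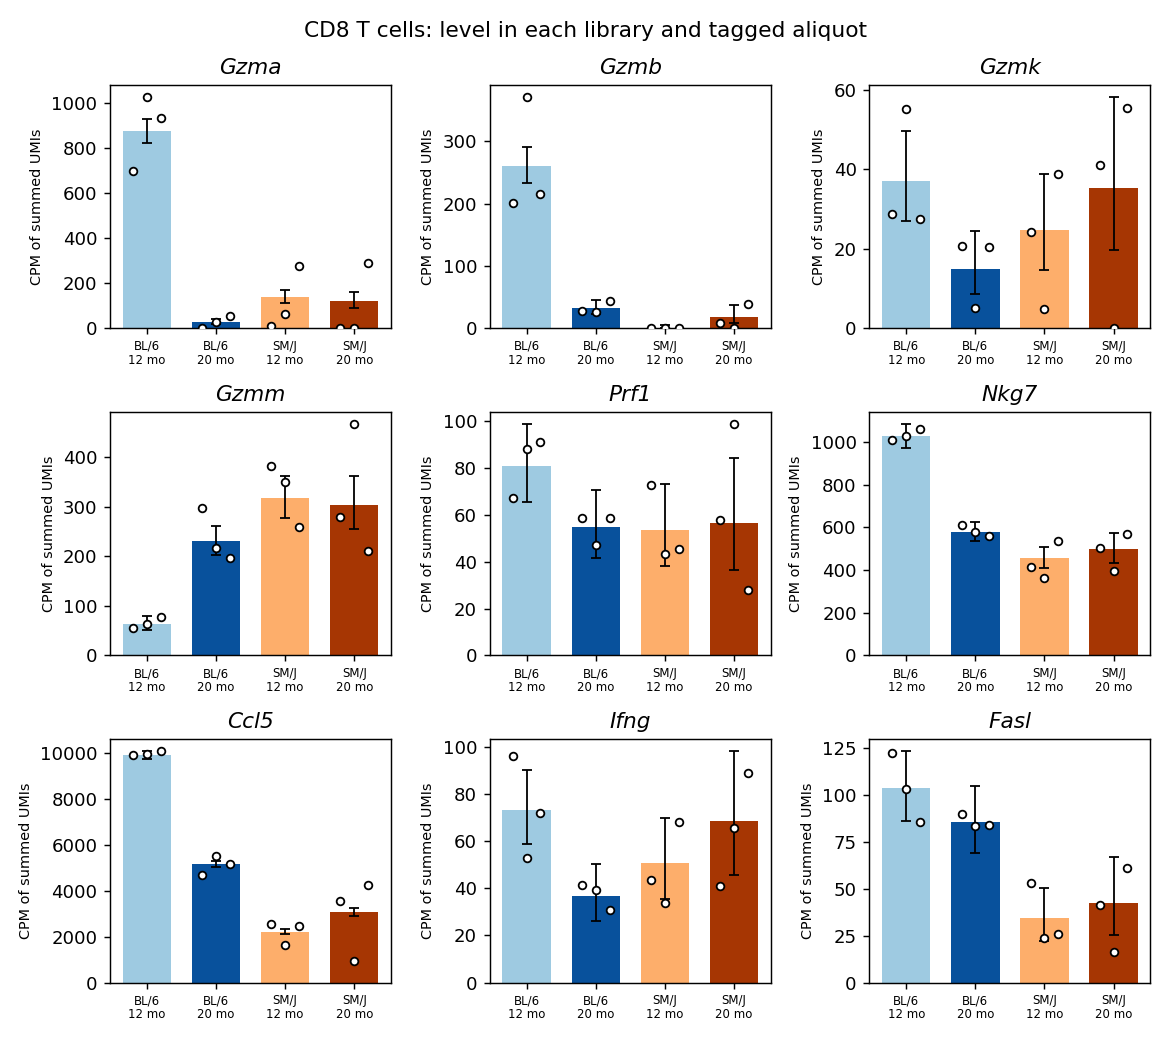
CD8 T cell level of each gene (CPM of summed UMIs, linear axes from 0) in the 4 libraries; bars are libraries with 95% Poisson intervals for counting error, open circles are the 3 tagged aliquots. BL/6 at 12 months is highest for Gzma (873 CPM), Gzmb, Nkg7 and Ccl5 and lowest for Gzmm (64.0 CPM).

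With age in BL/6, 4 of the 9 members passed 2-fold in CD8 T cells: Gzma, Gzmb and Gzmk lower and Gzmm higher at 20 months. Of 6699 genes, 7.34% passed that fold. With a mitochondrial limit of 5% a cell, 7 of the 9 passed, beside 9.95% of all genes. The median log2 ratio was -0.94 over the members and -0.14 over all genes. In SM/J none of the 8 members with 30 UMIs passed 2-fold, beside 6.75% of 4564 genes, and the medians were 0.22 and 0.03. Between strains at 12 months 6 of 9 passed. Gzma (log2 ratio -2.65), Gzmb, Nkg7 (-1.17), Ccl5 (-2.15) and Fasl (-1.57) were lower in SM/J, and Gzmm (2.29) was higher. With 1 aliquot left out, the ratio of Gzma ran from -4.58 to -2.20. Of 6237 genes, 12.1% passed, and the medians were -1.17 and -0.17. At 20 months 2 of 9 passed, Gzma (1.99) and Gzmk (1.18), both higher in SM/J, beside 11.2% of 5398 genes. Gzma rested on 6 cells in BL/6 and 2 in SM/J and Gzmk on 16 and 15 UMIs. Aliquot 3 of the older SM/J library held all its Gzma UMIs. Without that aliquot the library had none, a limit of 12.3 CPM, against 30.1 CPM in BL/6. The counting interval of that log2 ratio ended at -0.86. The comparisons with age and between strains share libraries and are not independent of each other.

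**Figure D4:**
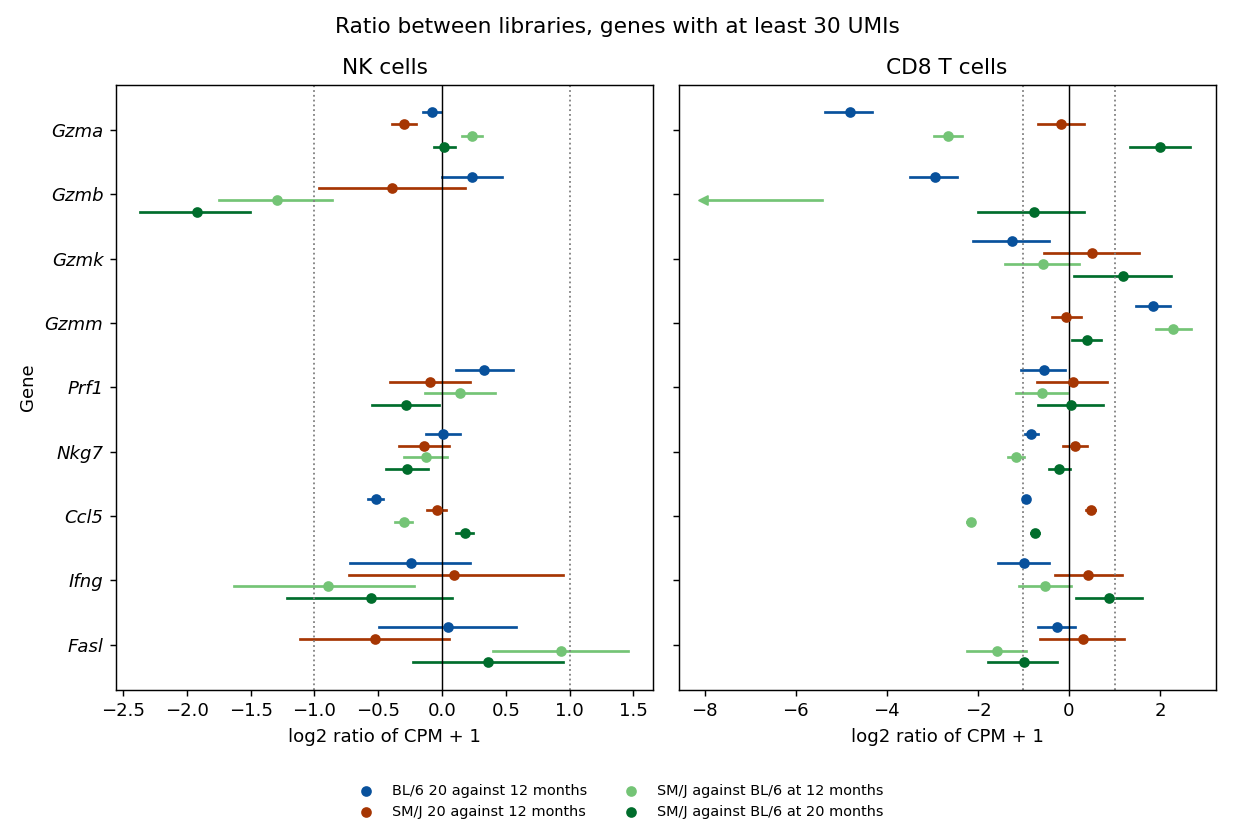
Log2 ratio of CPM + 1 between libraries for members with at least 30 UMIs over both, in NK cells (left) and CD8 T cells (right, wider axis), with 95% counting intervals; colours are the 4 comparisons, dotted lines mark 2-fold, and the triangle marks Gzmb with no UMI in SM/J at 12 months. The NK points lie within 2-fold except Gzmb between strains, and in CD8 T cells Gzma at -4.81 and Gzmm at 1.84 lie on opposite sides for BL/6 with age.

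The CD8 libraries also differed in cells with Lef1 or Ccr7, genes of naive and central memory T cells. A UMI of either was found in 135 of 198 cells (68.2%) of BL/6 at 12 months, 111 of 119 (93.3%) at 20 months, 97 of 108 (89.8%) for SM/J at the younger age and 46 of 59 (78.0%) at the older. After thinning to 1000 UMIs the shares were 26.8%, 47.1%, 41.7% and 33.9%. Cells without either gene were shallower, with a median of 3786 against 6933 UMIs in BL/6 at 12 months. In cells without Lef1 and Ccr7, Gzma was at 2200 CPM in BL/6 at 12 months (63 cells), 2017 CPM in SM/J at 12 months (11 cells) and 789 CPM in SM/J at 20 months (13 cells). It had no UMI in the 8 such cells of BL/6 at 20 months, a limit of 61.5 CPM. In cells with Lef1 or Ccr7, Gzma was at 471 CPM in BL/6 at 12 months, 31.5 CPM at 20 months and 14.6 CPM in SM/J at 12 months, with no UMI in SM/J at 20 months, a limit of 8.38 CPM. The lower level of BL/6 at 20 months was therefore also present among cells with Lef1 or Ccr7.

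Gzmm at 12 months was higher in cells with Lef1 or Ccr7 in both strains. In these cells it was at 80.1 CPM for BL/6 at 12 months, 236 CPM at 20 months, then 339 and 341 CPM for SM/J. In cells without, it was at 10.9 CPM from 3 UMIs in BL/6 at 12 months and had no UMI in SM/J at 12 months, a limit of 66.5 CPM. The 20-month libraries had 7 UMIs each in such cells, or 143 CPM in BL/6 (57.7 to 295), which covers the level in cells with Lef1 or Ccr7, and 106 CPM in SM/J (42.7 to 219). Ccl5 differed between strains among cells with Lef1 or Ccr7, at 7714 and 5120.3 CPM in BL/6 and 769 and 1140.1 CPM in SM/J. In cells without, it was at 17197 CPM in BL/6 at 12 months, 6227 CPM at 20 months, 24383 CPM in SM/J at 12 months and 13686 CPM in SM/J at 20 months. Between strains at 12 months, restricting to cells without Lef1 and Ccr7 brought Gzma to a log2 ratio of -0.12, Nkg7 to -0.02 and Fasl to -0.29, and turned Ccl5 to 0.50. Gzmb remained past 2-fold there, with no UMI in SM/J, a limit of 66.5 CPM, against 611 CPM in BL/6. Gzmk was at 377 CPM in SM/J and 61.5 CPM in BL/6, from 17 UMIs each, and Gzmm could not be compared.

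**Figure D5:**
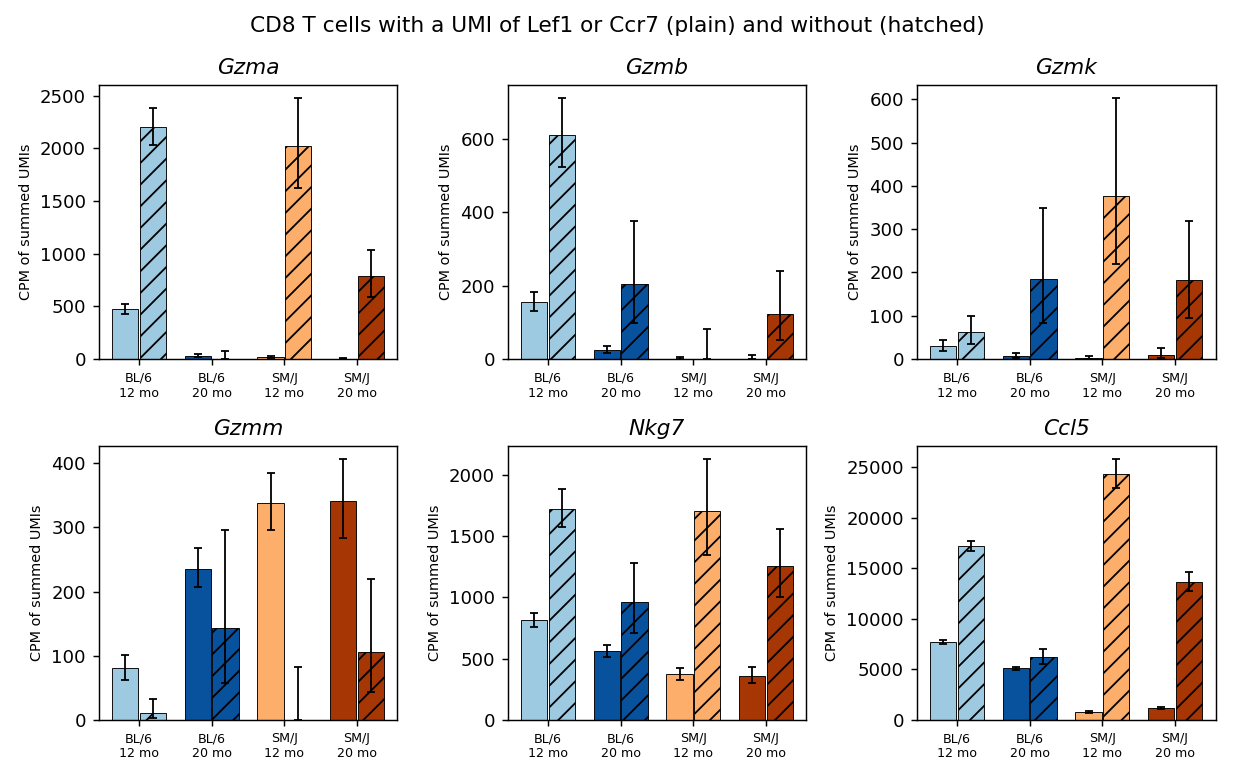
Level of 6 genes (CPM of summed UMIs, linear axes from 0) in CD8 T cells with a UMI of Lef1 or Ccr7 (plain bars) and without (hatched), by library, with 95% Poisson intervals for counting error; the hatched bars of BL/6 at 20 months and SM/J rest on 8 to 13 cells. Nkg7 and Ccl5 are higher in the hatched bars of each library, and Gzma in those of BL/6 at 12 months and SM/J. Gzmm at 12 months is higher in plain bars.

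In BL/6 at both ages Gzma was higher in CD8 T cells that also held NK receptor transcripts. A UMI of Ncr1 or Klre1 was present in 77 CD8 T cells (38.9%) of BL/6 at 12 months, 21 (17.6%) at 20 months, 3 (2.78%) of the younger SM/J library and 8 (13.6%) of the older. In BL/6 at 12 months Gzma was at 1639 CPM in the 77 cells and at 411 CPM in the other 121. At 20 months it was at 121 CPM in 21 cells and 5.95 CPM in 98, so the ages differed on both sides. In SM/J at 20 months the 52 UMIs of Gzma and 7 of 8 UMIs of Gzmb came from the 8 cells with Ncr1 or Klre1. Its other cells had no UMI of Gzma, a limit of 8.04 CPM, which is above the 5.95 CPM of BL/6, so the strains could not be ordered there. In BL/6 at 12 months Gzmm differed little by this split, at 73.8 and 58.1 CPM with and without.

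The granzymes were also read together in single cells, as a description with no test. Among the 61 Gzma-positive CD8 T cells of BL/6 at 12 months, 83.6% also held Gzmb and 9.84% Gzmm, against 24.8% and 22.6% of the 137 cells without Gzma. At 20 months 5 of the 6 Gzma-positive cells held Gzmb and 3 held Gzmm, against 13.3% and 71.7% of the others. In SM/J at 12 months 3 of 8 Gzma-positive cells held Gzmm, against 71.0% of the others, and 5 of 8 held Gzmk, against 4.00%. In NK cells of BL/6, 88.9% and 96.9% of Gzma-positive cells at 12 and 20 months held Prf1, against 13.6% and 21.4% of Gzma-negative ones. In SM/J these were 80.0% and 91.7%, against 16.7% at both ages. Such shares also rise with a cell's depth, which differs between the cells compared.

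In CD4 and other T cells the members were sparser and often held by few cells. Gzma was at 76.4 CPM in CD4 T cells of BL/6 at 12 months, but 36 of its 37 UMIs were in 1 cell. In other T cells it was at 162 and 72.7 CPM in SM/J and at 3.09 and 2.22 CPM in BL/6, with 46 of 48 UMIs of SM/J at 20 months in 1 cell. Ccl5 was at 955 and 484 CPM in CD4 T cells of BL/6 and at 116 and 911 CPM in SM/J. In other T cells, which include cells with no UMI of Cd4, Cd8a or Cd8b1, Nkg7 was at 392 and 260.4 CPM in BL/6 and 249.6 and 156 CPM in SM/J. Gzmk was at 49.6 CPM in CD4 T cells of SM/J at 20 months, from 16 UMIs in 10 of 71 cells, and at 3.05 CPM, from 1 UMI, at 12 months.

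A list of 43 related genes was read in the same cells. None of 6 other granzymes (Gzmc, Gzmd, Gzme, Gzmf, Gzmg and Gzmn) reached 30 UMIs; Gzmc had 1 UMI in NK and 1 in CD8 T cells of BL/6 at 12 months. In NK cells 2 of 26 list genes with 30 UMIs passed 2-fold with age in BL/6, beside 6.73% of all genes, both lower: Hopx and Serpinb6a, a serine protease inhibitor. In SM/J 3 of 20 passed, beside 7.99%, with Ctsc, the protease that activates granzymes, higher at 20 months (210.4 against 53.9 CPM) and Ccl3 and Eomes lower. Between strains the NK counts were 2 of 23 at 12 months, both lower in SM/J, beside 10.9% of all genes, and 13 of 24 at 20 months, 2 higher and 11 lower, beside 14.4%. The T-box factor Tbx21 and the chemokine Xcl1 were lower in SM/J at both ages, with Tbx21 at 184 and 212 CPM in BL/6 and 89.9 and 104 CPM in SM/J. The others at 20 months were Lamp1, Ccl3, Ccl4, Eomes, Id2, Bhlhe40, Stat4, Serpinb9 and Ifngr1, lower, and Hopx and Serpinb6a, higher. In these NK cells Lyz2 was at 2502 CPM in BL/6 and 290 CPM in SM/J at 20 months, and Cd79a at 37.8 and 945 CPM, and their part in these ratios was not tested.

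In CD8 T cells 6 of 28 list genes passed 2-fold with age in BL/6, beside 7.34% of all genes, and these 6 were lower at 20 months: Zeb2, a factor of terminal effector cells (349 and 90.3 CPM), Bhlhe40, Tnf, Xcl1, Serpinb9, which inhibits granzyme B, and its relative Serpinb6b. In SM/J 2 of 19 passed, beside 6.75%, Zeb2 higher (46.5 and 184 CPM) and Fas lower. Between strains at 12 months 13 of 27 passed, beside 12.1%, 12 of them lower in SM/J. These 12 were Tbx21 (13.7 against 103 CPM), Zeb2, Id2, Bhlhe40, Rab27a and Unc13d, which act in granule docking and priming, Serpinb9, Serpinb6b, Tnf, Tnfsf10, Xcl1 and Ccl4, and Fas was higher. At 20 months 3 of 22 passed, beside 11.2%, Ctsc and Zeb2 higher and Tbx21 lower. The older SM/J library also held the most Cd79a of the CD8 libraries, as given above. The part of B cell transcripts in these ratios was not tested. Of the interferon gamma receptor chains, Ifngr1 was at 472 to 572 CPM in CD8 T cells and 284 to 600.4 CPM in NK cells, and Ifngr2 was under 30 UMIs in each comparison.

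Across 35 population and library points with at least 30 cells, the genes outside the list of 9 whose log2 levels were most like the members' mean were Eomes (Pearson r = 0.95), Il2rb (0.95), Ctsw (0.95), Gm33104 (0.92), Samd3 (0.92), AW112010 (0.92), Xcl1 (0.91) and Klrk1 (0.90), of 11328 genes ranked. Of the members, Fasl was closest to their mean (0.97) and Gzmk farthest (0.56), with Gzmm at 0.69. Between members r ran from 0.14 for Gzma and Gzmk to 0.93 for Ifng and Fasl. The points share libraries and differ mainly in cell type, so these values are descriptions only.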

How the data were processed

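Raw UMI counts per gene and cell were deposited; per the file headers the software was Cell Ranger 7.0.1, and the submitters' processing notes name the build mm10 and Seurat 4.3.0. UMIs are counted molecules, but SM/J reads that differ from the reference can be lost, which was not tested. Cells were kept with at least 500 UMIs, 200 genes and at most 10% mitochondrial UMIs, and doublets called by Scrublet (scanpy 1.11.5, expected rate 0.06) were removed. Populations were gated by UMIs; cells outside the T and NK gates went to the lineage of 8 with the highest marker sum, given 2 of 4 markers. UMIs were summed per population and library and scaled to CPM. Ratios are log2 of CPM + 1 for genes with at least 30 UMIs over both libraries, with exact conditional binomial 95% intervals, and levels have Poisson and shares Clopper-Pearson intervals, all covering counting error only. A count of 0 is given with the limit that 3 UMIs set. The ratio script was tested on simulated data. Software was Python 3.11.15, numpy 2.4.6, scipy 1.17.1, pandas 2.3.3, matplotlib 3.10.9, R 4.3.3 and edgeR 4.0.16 (TMM scaling only, as an alternative). The 9 genes, the related list, the gates and the 2-fold rule were chosen with earlier results of these data known. Named are the 9 genes, list genes past 2-fold, receptors of interferon gamma and Fasl, and the 8 genes most like the members. Cells whose leading tag was not among the library's own 3 tags, or had no count, were in no aliquot. These were 20 of BL/6 and 28 of SM/J, from the younger libraries. One gene of the related list is not reported here.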

Additional observations from a re-analysis of the deposited data

Results flagged for a closer look

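Ccl5 in CD8 T cells went in opposite directions with age in the 2 strains, with both counting intervals clear of 0. The log2 ratio of 20 over 12 months was -0.94 in BL/6 and 0.47 in SM/J. The difference between the strains was not tested, since each strain and age has 1 library. In BL/6 the aliquots of the 2 ages did not overlap, at 9927 to 10102 CPM and 4687 to 5529 CPM. In SM/J they did, at 1647 to 2545 CPM and 935 to 4246 CPM. The older SM/J library was not higher among its CD8 T cells without Ncr1 and Klre1, a restriction chosen after seeing the data, at 1945 CPM at 12 months against 1857 CPM at 20 months. Without aliquot 3 of the older SM/J library the SM/J ratio was 0.0051. Among CD8 T cells without Lef1 and Ccr7 the level was lower at 20 months in both strains, at 17197 against 6227 CPM in BL/6 and 24383 against 13686 CPM in SM/J, where the log2 ratio was -0.83.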

How the results depend on the processing

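No paired analysis was possible because each strain and age has 1 library and no result comes from a test. Counts of members past 2-fold moved as follows. In NK cells between strains at 12 months the count of 1 became 2 with a mitochondrial limit of 5%, without cells holding 2 or more B lineage or monocyte markers, with both Ncr1 and Klre1 required, with each cell scaled to its own total and with TMM scaling, 0 without any UMI of Cd79a, Ms4a1, Lyz2, Csf1r or Pf4 (11.5% to 12.8% of all genes passed in these 6), and 3 at 1.5-fold, which 29.6% of all genes passed. Gzmb, the 1 member counted at first, was not among the 2 without cells holding 2 or more B lineage or monocyte markers. It was also under 2-fold after thinning. At 20 months the count of 1 became 3 of 7 without any UMI of Cd79a, Ms4a1, Lyz2, Csf1r or Pf4, beside 12.1% of all genes. It became 2 of 8 with genes of at least 10 UMIs, beside 21.2% of all genes. In CD8 T cells of BL/6 with age the count of 4 became 7 with the limit of 5%, beside 9.95% of all genes, and 7 at 1.5-fold, which 22.2% of all genes passed. In SM/J with age 0 became 1 of 3 tested without Lef1 and Ccr7 and 1 of 7 without Ncr1 and Klre1, beside 11.6% and 7.27%. Between strains at 12 months 6 of 9 became 2 of 8 without Lef1 and Ccr7, beside 25.6% of all genes. At 20 months 2 of 9 became 1 of 8 with the limit of 5% (12.7% of all genes), 1 of 6 without the 5 genes (13.3%), 0 of 3 thinned (10.7%), 0 of 4 with at least 100 UMIs (5.68%) and 6 of 9 at 1.5-fold, beside 29.3% of all genes. Fewer members were tested in several of these. Otherwise the cause was not tested.

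Leaving out 1 aliquot at a time gave 0 members in NK cells with age in BL/6 (6.06% to 8.63% of all genes) and SM/J (7.33% to 10.8%), and between strains 1 to 3 (9.72% to 14.1%) at 12 months and 1 to 2 (13.9% to 17.2%) at 20 months. In CD8 T cells it gave 4 to 5 (6.78% to 8.13%) in BL/6 and 0 to 1 (6.65% to 9.38%) in SM/J with age, and between strains 6 to 7 (11.2% to 14.6%) and 1 to 4 (10.1% to 13.5%). Of 980 recomputed log2 ratios of members, 145 changed sign, 137 of them under 2-fold at first. Among these 137, intervals were clear of 0 on both sides, on 30 UMIs or more, for Gzma with age in NK cells of each strain and Nkg7 and Ccl5 between strains in NK cells, all with purity filters, and for Ccl5 in CD8 T cells without Lef1 and Ccr7, which went from 0.47 to -0.83 in SM/J with age and from -0.74 to 1.14 between strains at 20 months. Intervals were not computed with scaling alternatives. The remaining 8 were past 2-fold at first, all in CD8 T cells, and 2 rested on 30 UMIs or more. Ccl5 between strains at 12 months turned to 0.50 without Lef1 and Ccr7. Gzma between strains at 20 months ran from -4.96 to 2.96 with 1 aliquot left out. The value of -4.96 comes from no UMI in SM/J and the pseudocount. Its counting interval ended at -0.86, and the BL/6 level was 2.44-fold above the floor of 3 UMIs. The other 6 of the 8 were under 30 UMIs, too few to read a direction by the rule used here. Gzma at 20 months without Ncr1 and Klre1 (-2.80) and Gzmm at 12 months without Lef1 and Ccr7 (-3.57) had no UMI in SM/J, with limits of 8.04 and 66.5 CPM above the BL/6 levels of 5.95 and 10.9 CPM. Gzmk rested on 13 to 26 UMIs: 1.57 in BL/6 with age without Lef1 and Ccr7, and between strains at 20 months -0.59 without the 5 genes, -0.018 without Lef1 and Ccr7 and -0.086 without Ncr1 and Klre1. Of the log2 ratios recomputed, 729 moved by less than their error and 243 by more. The filters on 2 or more markers and on Ncr1 and Klre1 in CD8 T cells were chosen after seeing the data. With 59 to 198 CD8 T cells and 60 to 112 NK cells a library, genes under 30 UMIs could not be ordered.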
